A study of Mus musculus with 6 samples.

Results

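Expression of 9 immediate early genes was examined in cultures of mouse cerebral cortex. The genes were Fos, Fosb and Junb, which encode AP-1 transcription factors, Egr1, Egr2, Egr3 and Egr4, which encode zinc finger transcription factors, Npas4, which encodes a neuronal transcription factor, and Arc, which encodes a cytoplasmic protein of synapses. They were taken by name, and every probe on the array whose gene name matched a member was used. This matching used no measured values, but the members were chosen with earlier results of these data known. Counts of members given below therefore describe these arrays and are not an independent test. The 9 genes had 14 of the 56605 probes that were not controls. Irradiated cultures (3 arrays) were exposed to terahertz radiation at 3.1 THz in daily sessions of 3 hours that ran over days 5 to 9 of culture. Control cultures (3 arrays) are labelled only as control, and the labels do not say whether they were sham-exposed. All cultures came from C57/B6 embryos at embryonic day 16, were grown in Neurobasal medium with B27 plus, and gave RNA at day 12 in vitro. The labels call them neuron cultures, but glial markers were measured in them too, as given further on. The arrays in each group are numbered 1, 2 and 3, and the labels do not say what a number stands for or whether the cultures came from separate dissections, so p-values cover only the spread among these 6 arrays, part of which may be technical.

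Immediate early genes are switched on by existing transcription factors when calcium and kinase signals reach the nucleus, and their transcripts are short-lived. In cortical neurons they follow synaptic activity, and growth factors induce several of them in glia as well. CREB, which binds the cAMP response element (CRE), and SRF, which binds the CArG box, are the best known of the factors that start their transcription. In these cultures the last exposure was on day 9 and the RNA was taken on day 12.

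The sequences just before the starts of these genes are shown as background, and whether they bear on the values below was not tested. RefSeq (GRCm38.p6) promoters were at hand for 6 of the 9 genes: Fos, Fosb, Junb, Egr2, Egr4 and Npas4. The 250 bases before the start are printed for 5 of them, 5′ to 3′ on the gene's strand, with every match of a searched motif in capitals. For Egr2, which has 5 listed starts, the window of start 3 in order of position is printed.
Fos, chr12:85473640-85473889, plus strand: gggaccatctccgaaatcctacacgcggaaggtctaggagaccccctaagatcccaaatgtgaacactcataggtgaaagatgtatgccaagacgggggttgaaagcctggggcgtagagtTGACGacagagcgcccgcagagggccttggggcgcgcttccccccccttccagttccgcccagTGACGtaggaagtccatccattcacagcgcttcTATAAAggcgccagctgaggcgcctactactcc
Fosb, chr7:19310046-19310295, minus strand: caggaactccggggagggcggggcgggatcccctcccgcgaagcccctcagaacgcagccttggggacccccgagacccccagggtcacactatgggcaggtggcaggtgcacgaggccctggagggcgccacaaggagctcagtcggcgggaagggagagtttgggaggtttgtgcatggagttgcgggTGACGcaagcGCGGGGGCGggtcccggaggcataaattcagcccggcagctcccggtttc
Egr4, chr6:85513590-85513839, minus strand: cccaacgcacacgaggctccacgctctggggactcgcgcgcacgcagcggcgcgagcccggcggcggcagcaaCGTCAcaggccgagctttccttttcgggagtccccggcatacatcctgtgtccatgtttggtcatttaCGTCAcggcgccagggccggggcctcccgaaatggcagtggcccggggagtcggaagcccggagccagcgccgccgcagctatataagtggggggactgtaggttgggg
Npas4, chr19:4989972-4990221, minus strand: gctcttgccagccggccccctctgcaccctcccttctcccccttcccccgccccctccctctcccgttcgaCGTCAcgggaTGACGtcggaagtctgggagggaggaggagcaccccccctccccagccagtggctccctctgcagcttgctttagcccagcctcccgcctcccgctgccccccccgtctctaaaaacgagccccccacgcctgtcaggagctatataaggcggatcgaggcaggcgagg
Egr2, chr10:67537619-67537868, plus strand: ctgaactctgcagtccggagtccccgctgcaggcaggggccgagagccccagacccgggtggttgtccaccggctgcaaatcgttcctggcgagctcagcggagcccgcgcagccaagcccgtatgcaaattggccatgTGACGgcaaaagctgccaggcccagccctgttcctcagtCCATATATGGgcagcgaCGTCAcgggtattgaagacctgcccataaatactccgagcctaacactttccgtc
The motifs searched on both strands were the core CRE (TGACG), the full CRE (TGACGTCA, which contains the core CRE), the AP-1 site (TGANTCA), the EGR site (GCGNGGGCG), the TATA box (TATAAA) and the CArG box by name. At least 1 core CRE was found for all 6 genes (in Egr2 at starts 3, 4 and 5), against 17.8% of the 32851 promoters of the same length in the table. For Egr2 a match at any of its 5 starts counted, whereas the shares of all promoters count each start singly. In Fos the core CREs lay 129 to 125 and 66 to 62 bases before the start, with a TATA box at 33 to 28 bases. Fosb held 1 core CRE, 60 to 56 bases before the start, and an EGR site at 50 to 42 bases. Egr4 held core CREs on the opposite strand at 177 to 173 and 109 to 105 bases, and Npas4 held 2 at 179 to 175 and 169 to 165 bases. Junb held 1 core CRE at 106 to 102 bases. Within these 250 bases Egr2 was the only one of the 6 with a CArG box, against 1.47% of all promoters. It reads CCATATATGG at 72 to 63 bases before its start 3. Another, CCTTTTTTGG, lies 72 to 63 bases before its start 2. Bases further upstream were not searched, so sites lying there would be missed. No window of the 6 genes held the full CRE letters (1.55% of all promoters) or an AP-1 site (6.75%). A match is a run of letters and not a shown binding site.

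Signals are given as log2 of the processed signal minus the array's 75th percentile, so 0 is the 75th percentile and 1 unit is a doubling. The 75th percentile ranged from 921 to 1291 on irradiated arrays and from 476 to 1048 on control arrays, and between 63.3% and 73.5% of probes were well above background on an array. Control 1 stood apart from the other arrays on the first principal component (-148, against 11.6 to 62.0 for the other 5 arrays), which held 55.4% of the variation. Counts of genes or median differences between array numbers are therefore also given without it, where the number 1 is irradiated 1 alone. Its spread is then taken from the other arrays. Shares of variation, per-gene differences, summed levels and distances are over all 6 arrays unless another set is named. The neuronal markers Rbfox3, Tubb3, Map2, Snap25 and Syt1, like all 10 neuronal markers examined, were kept by the filter on dim probes. Of the 14 member probes, 11 passed that filter (well above background on at least 3 of 6 arrays), and each member kept at least 1. All 11 were well above background on all 6 arrays.

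Irradiated and control cultures showed no difference in any of the 9 genes beyond the spread between arrays. In limma fitted over 40552 probes, 0 probes passed an adjusted p of 0.05 (0% of those tested), and 0 of the 11 member probes did. The unadjusted p was under 0.05 for 2107 of 26157 genes (8.06%) and for 0 of the 9 members. The ranges of the 2 groups were apart in 13.6% of genes and in 0 of the 9 members. Junb, which had the lowest p of the 9, averaged 2.98 ± 0.46 in irradiated and 3.44 ± 0.22 in control cultures, and Npas4 averaged -0.76 ± 1.15 in irradiated and -0.93 ± 0.81 in control cultures (SD, n = 3 each). With the array number as a block, the 95% intervals of all 9 members again included 0, with the lowest unadjusted p at 0.087 for Fosb (-1.43 to 0.14). The median difference (irradiated minus control) was -0.08 over the 9 genes and -0.10 over all genes kept. In simulated data the same fit of groups alone called 0 of 200 probes changed by 1 log2 unit, so changes of that size could be missed. The simulated spread was the one left with the array number in the fit. On the real arrays the fit of groups alone also carries the spread between numbers, so larger changes could be missed too. Its interval for Fosb ran from -2.74 to 1.44.

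**Figure D1:**
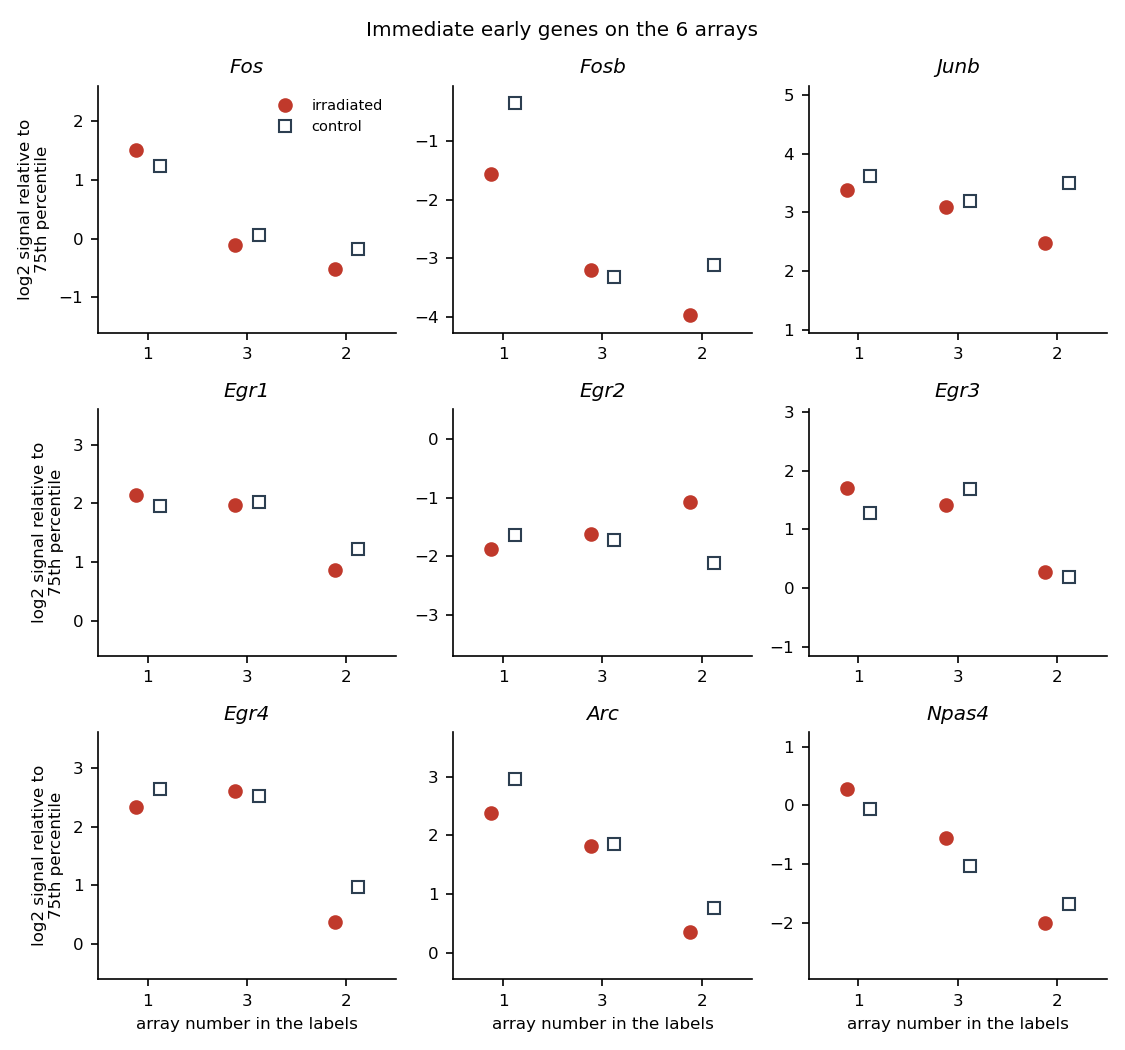
Log2 signal relative to the 75th percentile (vertical axis, the same span in each panel) of the probe with the highest mean for each of the 9 genes, by array number (1, 3 and 2), with irradiated arrays as filled circles and control arrays as open squares. Irradiated and control arrays run in the same direction over numbers 1 and 2 for Fos, Fosb, Egr1, Egr3, Egr4, Arc, Npas4 and Junb. For Junb the control arrays fall little (3.62 to 3.50), and only irradiated 2 is low. Egr2 runs in opposite directions in the 2 groups.

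Arc is an effector rather than a transcription factor: its protein forms capsid-like particles and takes part in the removal of AMPA receptors from synapses. Arc (chromosome 15, 74499597 to 74499656, minus strand, build mm9) measured 2.38, 1.81 and 0.35 on irradiated arrays 1, 3 and 2, against 2.96, 1.86 and 0.76 on control arrays 1, 3 and 2. Both groups had their highest value on the array numbered 1 and their lowest on the array numbered 2, and the groups overlapped. The difference between groups was -0.35 (95% interval -1.91 to 1.22, adjusted p 0.888). Same-numbered arrays differed by -0.58, -0.05 and -0.41 for numbers 1, 3 and 2 (irradiated minus control), beside a range of 2.61 over the 6 arrays.

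Npas4 encodes a transcription factor that responds to calcium entry in neurons and is known for its control of inhibitory synapses. Npas4 (chromosome 19, 4984356 to 4984415, minus strand, mm9) measured 0.28, -0.55 and -2.0 on irradiated arrays 1, 3 and 2, against -0.07, -1.04 and -1.68 on control arrays 1, 3 and 2. The order of the numbers was the same as for Arc in both groups. The groups differed by 0.17 (95% interval -1.30 to 1.64, adjusted p 0.949).

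Fos and Fosb encode partners of Jun proteins in the AP-1 complex. Fos (chromosome 12, 86818118 to 86818177, plus strand, mm9) measured 1.51, -0.12 and -0.52 on irradiated arrays 1, 3 and 2, against 1.24, 0.06 and -0.17 on control arrays 1, 3 and 2. Fosb (chromosome 7, 19888168 to 19888227, minus strand) measured -1.57, -3.20 and -3.97 on irradiated arrays 1, 3 and 2, against -0.36, -3.32 and -3.12 on control arrays 1, 3 and 2. For both genes the 2 arrays numbered 1 were the highest of the 6, while the arrays numbered 3 and 2 overlapped for Fosb and lay just apart for Fos, with number 2 lower. Between groups Fos differed by -0.08 (95% interval -1.46 to 1.29, adjusted p 0.976) and Fosb by -0.65 (95% interval -2.74 to 1.44, adjusted p 0.819). A second Fosb probe, 1978 bases upstream of the first along the gene's strand, was well above background on 0 of the 6 arrays.

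Junb encodes an AP-1 protein that can restrain the activity of c-Jun. Junb (chromosome 8, 87500843 to 87500902, minus strand, mm9) measured 3.38, 3.09 and 2.48 on irradiated arrays 1, 3 and 2, against 3.62, 3.20 and 3.50 on control arrays 1, 3 and 2. The lowest value was that of irradiated 2, whereas control 2 lay between the other controls, so Junb did not follow the number. The groups differed by -0.46 (95% interval -1.12 to 0.21, adjusted p 0.576). A Junb probe 1038 bases upstream differed by 0.15 (95% interval -0.68 to 0.97), with opposite sign and within its error. Another probe carrying the Junb name, listed under the transcript AK044253 and lying at -4208 on the same count of bases upstream, was well above background on 0 of the 6 arrays.

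The 4 Egr genes encode proteins with a shared zinc finger domain, and Nab proteins hold back the activity of some of them. Egr1 (chromosome 18, 35024395 to 35024454, plus strand, mm9) measured 2.15, 1.97 and 0.86 on irradiated arrays 1, 3 and 2, against 1.95, 2.02 and 1.23 on control arrays 1, 3 and 2. Egr4 (chromosome 6, 85461153 to 85461212, minus strand) measured 2.33, 2.61 and 0.37 on irradiated arrays 1, 3 and 2, against 2.63, 2.52 and 0.97 on control arrays 1, 3 and 2. Egr3 (chromosome 14, 70482361 to 70482420, plus strand) measured 1.70, 1.42 and 0.27 on irradiated arrays 1, 3 and 2, against 1.28, 1.69 and 0.19 on control arrays 1, 3 and 2. In these 3 genes the 2 arrays numbered 2 were the lowest of the 6, and the arrays numbered 1 and 3 overlapped. Between groups Egr1 differed by -0.08 (95% interval -1.0 to 0.85), Egr4 by -0.27 (95% interval -1.85 to 1.32) and Egr3 by 0.07 (95% interval -1.08 to 1.23), with adjusted p of 0.966, 0.918 and 0.974.

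Egr2 encodes a factor also known for its part in myelination by Schwann cells, and its values did not follow the number. Egr2 (chromosome 10, 67004758 to 67004817, plus strand, mm9) measured -1.87, -1.62 and -1.07 on irradiated arrays 1, 3 and 2, against -1.63, -1.72 and -2.12 on control arrays 1, 3 and 2. The 2 arrays numbered 2 held the highest and the lowest of the 6 values. The groups differed by 0.31 (95% interval -0.34 to 0.95, adjusted p 0.699). The probes of Egr3 did not fully match each other. A probe 382 bases upstream of the first measured 0.13, 0.17 and -1.04 on irradiated arrays 1, 3 and 2, against -1.69, 0.28 and -1.25 on control arrays 1, 3 and 2. It was lowest on control 1, where the other Egr3 probe lay above its values on both arrays numbered 2. The remaining Egr3 probe, 3534 bases upstream, was well above background on 1 irradiated and 1 control array and was left out by the filter.

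**Figure D2:**
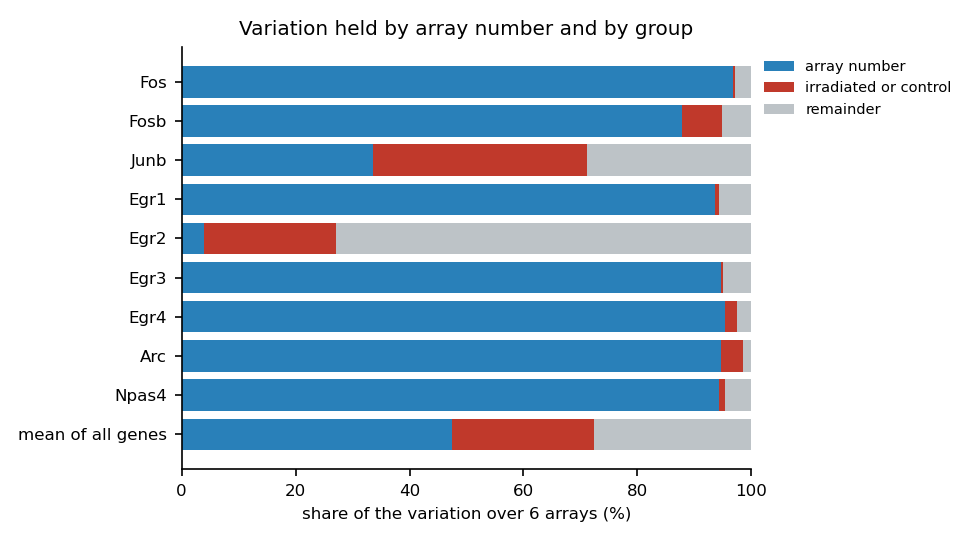
Share of the variation over the 6 arrays (horizontal axis, percent) that lay between array numbers, between irradiated and control cultures, and in the remainder, for each of the 9 genes and as the mean over all genes kept. Each gene is given by its probe with the highest mean. The array number held 87.8% or more in 7 of the 9 genes, against 33.5% for Junb and 3.96% for Egr2.

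The array number held most of the variation of 7 members. It held 96.8% for Fos, 95.3% for Egr4, 94.7% for Arc, 94.7% for Egr3, 94.3% for Npas4, 93.6% for Egr1 and 87.8% for Fosb, while the group held between 0.29% (Fos) and 6.96% (Fosb). For the Egr3 probe 382 bases upstream of the first, the number held 54.3%. The median over the 9 members was 94.3% for the number and 2.22% for the group, against medians of 44.2% and 19.6% over the 26157 genes kept. In Junb the group held 37.7% and the number 33.5%, and in Egr2 the number held 3.96% and the remainder 73.0%. These shares describe 6 arrays and carry no test.

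The arrays numbered 1, 2 and 3 were then compared, each number with 1 irradiated and 1 control array and with the group as a covariate. In limma's F test 1 of 40552 probes passed an adjusted p of 0.05 (0.00247%), a probe of the myelin gene Mobp, named after its values were seen, and 0 of the 11 member probes did. At an unadjusted p under 0.05 the F test found 14.3% of all genes and 7 of the 9 members, which were Fos, Fosb, Egr1, Egr3, Egr4, Arc and Npas4. Without control 1 the F test found 8.84% of all genes and 7 of the 9 members. The adjusted p of these 7 ranged from 0.099 for Arc to 0.259 for Egr1. Members named below as higher at an unadjusted p missed the adjusted threshold unless this is stated.

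Between the arrays numbered 1 and those numbered 2, 0.195% of probes passed the adjusted threshold in either direction and 0 member probes did. By the unadjusted p, 7 of the 9 members were higher on the arrays numbered 1, against 7.60% of all genes, and 0 were lower, against 7.75%. Without control 1 the count was again 7 of 9, against 4.61% of all genes. The largest difference was that of Fosb, 2.58 (95% interval 1.62 to 3.54, 5.97-fold, adjusted p 0.087), followed by Arc, 2.12 (1.48 to 2.75, 4.33-fold, adjusted p 0.067). Npas4 differed by 1.95 (3.86-fold), Egr4 by 1.81 (3.51-fold) and Fos by 1.72 (3.30-fold), with adjusted p of 0.090, 0.089 and 0.092. The 2 smallest were Egr3, 1.26 (2.39-fold, adjusted p 0.149), and Egr1, 1.01 (2.01-fold, adjusted p 0.193). Junb differed by 0.51 (95% interval -0.27 to 1.30) and Egr2 by -0.16 (95% interval -1.10 to 0.79). Arc passed the adjusted threshold with normexp background correction (2.03, adjusted p 0.028), with probes well above background on all 6 arrays (2.12, adjusted p 0.038) and with the mean of each gene's probes (2.12, adjusted p 0.037). With the mean of its probes Egr3 differed by 0.81 (adjusted p 0.356), and the count of members was 6. Without irradiated 1, the number 1 is control 1 alone, the array that stands apart, and its spread is taken from the other arrays; there Arc (2.29, adjusted p 0.028), Fosb (3.00, adjusted p 0.024) and Egr4 (1.84, adjusted p 0.049) passed. Without control 1 they missed the threshold, with Arc at 1.94 (adjusted p 0.119), Fosb at 2.16 (adjusted p 0.138) and Egr4 at 1.79 (adjusted p 0.181). The median over the 9 members was 1.72, and over all genes kept -0.04.

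**Figure D3:**
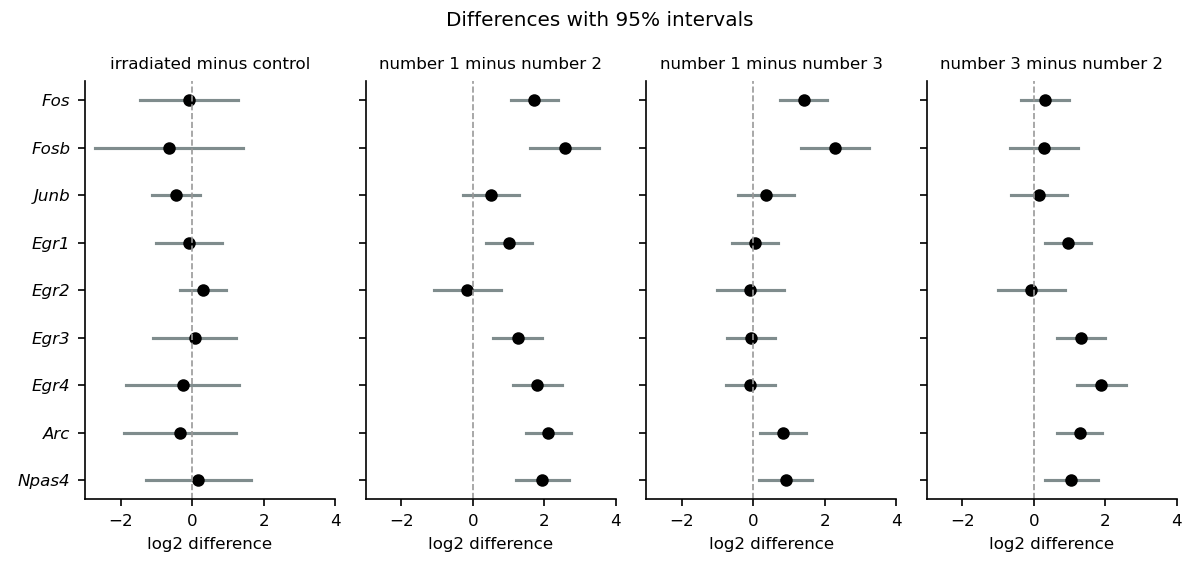
Log2 differences (horizontal axis) of the 9 genes with 95% intervals as bars, for irradiated minus control and for the 3 comparisons of array numbers. All 9 intervals of irradiated minus control include 0, while 7 intervals lie above 0 for number 1 minus number 2, 4 for number 1 minus number 3 and 5 for number 3 minus number 2.

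The members divided when the arrays numbered 3 were set beside the other 2 numbers. Between numbers 1 and 3, 0.459% of probes passed the adjusted threshold and 0 member probes did. By the unadjusted p, 4 of the 9 members were higher on the arrays numbered 1 (8.70% of all genes) and 0 were lower (8.94%). They were Fosb (2.29, 95% interval 1.33 to 3.25, adjusted p 0.086), Fos (1.41, 0.74 to 2.07, adjusted p 0.099), Npas4 (0.90, 0.16 to 1.64, adjusted p 0.245) and Arc (0.83, 0.20 to 1.47, adjusted p 0.222). The count was lower with any array left out except irradiated 3. That includes control 2 and irradiated 2, without which the numbers 1 and 3 keep both of their arrays. In each of these runs 1 array stands alone for its number. With one array left out, the differences ranged from 1.71 to 2.87 for Fosb and 1.14 to 1.67 for Fos. Those of Npas4 ranged from 0.67 to 1.14 and those of Arc from 0.61 to 1.05. Leaving out either array numbered 2, control 2 or irradiated 2, brought Fosb past the adjusted threshold (2.29, adjusted p 0.029 in both). It also passed without irradiated 1 (2.71, adjusted p 0.032), where control 1 alone stands for number 1, and missed the threshold without control 1 (1.87, adjusted p 0.171). Over the same contrast, markers of other cells were also higher at an unadjusted p under 0.05 (8.70% of all genes). These were 10 of 11 microglial markers (median difference 2.99) and 7 of 8 astrocyte markers (median 1.05). Without control 1 the medians of the 2 lists were 3.08 and 0.91, against -0.10 over all genes kept, and fewer astrocyte markers passed. The part of these cells in the difference was not tested. The Egr genes differed little, with Egr1 at 0.05 (95% interval -0.59 to 0.70), Egr3 at -0.07 (-0.75 to 0.61; -0.53 with the mean of its probes) and Egr4 at -0.08 (-0.76 to 0.60).

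Between numbers 3 and 2, 0% of probes passed the adjusted threshold. By the unadjusted p, 1.38% of all genes were higher on the arrays numbered 3 and 1.93% lower, whereas 5 of the 9 members were higher and 0 lower. They were Egr4 (1.89, 95% interval 1.21 to 2.57, 3.72-fold), Egr3 (1.32, 0.65 to 2.00, 2.51-fold), Arc (1.28, 0.65 to 1.92, 2.44-fold), Npas4 (1.05, 0.30 to 1.79, 2.06-fold) and Egr1 (0.95, 0.31 to 1.59, 1.93-fold), each with an adjusted p of 0.9999. Fos differed by 0.32 (95% interval -0.35 to 0.98) and Fosb by 0.29 (-0.67 to 1.25). Control 1 and irradiated 1 do not enter these differences. The count was again 5 without both arrays numbered 1, where the share over all genes is not given here. It was lower without irradiated 2 or without irradiated 3, where 1 control array stands alone for its number. With one array left out, the differences ranged from 1.62 to 2.16 for Egr4, 1.07 to 1.58 for Egr3 and 1.06 to 1.51 for Arc. Those of Npas4 ranged from 0.68 to 1.41 and those of Egr1 from 0.73 to 1.17. By level, then, the first probes of Egr1, Egr3 and Egr4 stood at a like level on the numbers 1 and 3 and lower on number 2, Fos and Fosb were high on number 1 and at a like level on the numbers 3 and 2, and Arc and Npas4 lay in between on number 3. This division was seen in the values, and whether the genes differ in it was not tested.

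Genes of the same pathway were counted from lists made for this description. Of 22 other immediate early factors, all kept, 0 passed the adjusted threshold between groups or in the F test over numbers. Counted by the unadjusted p, 0 differed between groups, and 8 were higher and 0 lower on the arrays numbered 1 than on those numbered 2 (36.4%, against 7.60% of all genes). Without control 1 the count was 4 higher and 0 lower, against 4.61% and 4.29% of all genes. The 4 with the largest difference were the orphan nuclear receptor gene Nr4a1 (2.58), the AP-1 gene Fosl2 (2.18), Nr4a2, a relative of Nr4a1 (0.93), and Cebpd, a C/EBP factor gene (0.93). Nr4a1 measured 3.28, 2.21 and 0.91 on irradiated arrays 1, 3 and 2, against 3.69, 2.22 and 0.90 on control arrays 1, 3 and 2, with the same order of numbers in both groups. Fosl2 measured 2.22, 1.65 and 0.19 on irradiated arrays 1, 3 and 2, against 2.52, 1.81 and 0.19 on control arrays 1, 3 and 2, again in that order. Jun, which encodes a partner of Fos, differed by -0.34 between numbers 1 and 2 (95% interval -1.05 to 0.38).

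Activity effectors are proteins that act at synapses, in secretion or in signalling after the first wave of transcription. Of 19, all kept, 0 passed an adjusted threshold, and at an unadjusted p under 0.05 there were 7 higher (36.8%, against 7.60% of all genes) and 2 lower (10.5%, against 7.75%) on the arrays numbered 1 than on those numbered 2. Without control 1 fewer passed in either direction, and the median difference was 0.45, against -0.11 over all genes kept. The 4 with the largest absolute difference were Ptgs2, the inducible cyclooxygenase (1.90), the pentraxin gene Nptx1 (-1.34), the neurotrophin gene Bdnf (1.15) and Rgs2, a regulator of G-protein signalling (1.12). Between numbers 3 and 2, 3 of the 19 were higher at that threshold (15.8%, against 1.38% of all genes) and 0 lower, with Ptgs2 at 1.75, Bdnf at 0.85 and Rgs2 at 0.83.

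Feedback inhibitors switch the same signals off. Of 16 listed, 15 were matched by name and kept. At an unadjusted p under 0.05, 8 of these were higher (53.3%, against 7.60% of all genes) and 0 lower on the arrays numbered 1 than on those numbered 2. The 8 included the MAP kinase phosphatase genes Dusp5 (2.08), Dusp1 (1.96) and Dusp4 (1.39) and Nab2 (1.11), a corepressor of Egr proteins. Without control 1 fewer of the 15 were higher, and their median difference was 0.68, against -0.11 over all genes kept. Of 29 upstream kinases, channels and transcription factors, 2 were higher (6.90%) and 5 lower (17.2%, against 7.75% of all genes), and their median difference was -0.15. Without control 1 fewer were lower, and the median difference was -0.28, against -0.11 over all genes kept. The 4 largest were the calcium channel gene Cacna1d (-2.05), the kinase gene Rps6ka1 (1.43), Elk4, encoding a partner of SRF (-1.04), and the kinase gene Rps6ka5 (-0.91). Srf differed by -0.15 and Creb1 by -0.11. No gene of these 4 lists passed the adjusted threshold in the F test, and 0 differed between irradiated and control cultures at an unadjusted p under 0.05.

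**Figure D4:**
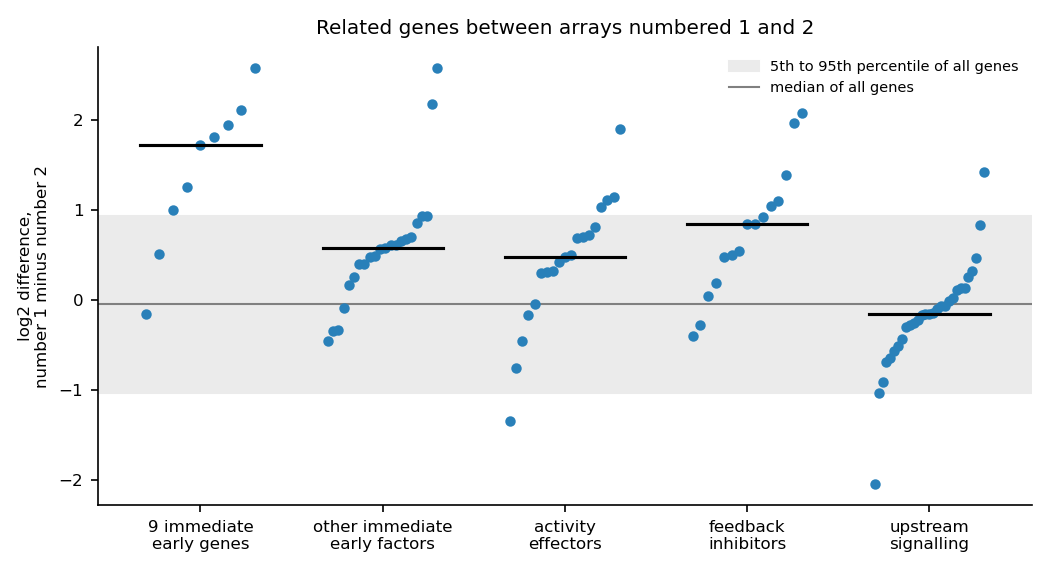
Log2 difference between arrays numbered 1 and 2 (vertical axis) of each gene of 5 lists, with the list median as a black line and the 5th to 95th percentile of all genes (-1.03 to 0.93) in grey. The medians were 1.72 for the 9 members, 0.57 for other immediate early factors, 0.47 for activity effectors, 0.84 for feedback inhibitors and -0.15 for upstream signalling.

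The genes whose pattern lay nearest to the median pattern of the members were sought among 15467 other named genes, by the root mean square distance of 6 values, each gene centred on its own mean. The nearest was Ankrd33b (0.061), followed by Grm8, encoding a metabotropic glutamate receptor (0.119), Gabrd, the delta subunit of GABA-A receptors (0.130), Ccnd1, encoding cyclin D1 (0.133), and Dusp4 (0.134). The next 5 were Six3os1, Moxd1, Tshz2, Lurap1 and Fignl1, at 0.144 to 0.150. The median distance over all candidates was 0.618, and the members themselves lay between 0.252 (Egr1) and 0.792 (Fosb) from their own median. Gabrd measured 2.80, 2.65 and 1.65 on irradiated arrays 1, 3 and 2, against 3.11, 2.58 and 1.97 on control arrays 1, 3 and 2. All 5 of the nearest had their highest value on the arrays numbered 1 and their lowest on those numbered 2, in both groups. The members' median pattern has that order in both groups, so it follows from how these genes were selected.

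Markers of other cells also varied with the array number, and in these bulk samples fewer cells of a type and less RNA per cell cannot be told apart. Of 11 microglial markers, all kept, 10 were higher on the arrays numbered 1 than on those numbered 2 at an unadjusted p under 0.05. So were 7 of 8 astrocyte markers, while 7.60% of all genes were higher and 7.75% lower. Without control 1 the median differences of the 2 lists were 2.39 and 0.71, against -0.11 over all genes kept, and fewer astrocyte markers passed. The summed signal of the microglial markers, in multiples of the 75th percentile, ranged from 9.33 to 27.8 on irradiated arrays and from 7.41 to 23.7 on control arrays, in both groups with the highest value on the array numbered 1. The astrocyte sum ranged from 46.9 to 109.7 on irradiated arrays and from 49.5 to 122.7 on control arrays. Of 10 neuronal markers 1 was higher and 1 lower, and their sum ranged from 205.8 to 302.4 on irradiated arrays and from 280.3 to 298.7 on control arrays. Of 10 oligodendrocyte lineage markers 4 were higher and 1 lower, with sums of 102.5, 72.1 and 48.7 on irradiated arrays 1, 3 and 2, against 112.4, 79.4 and 47.4 on control arrays 1, 3 and 2. These sums ran in the order 1, 3, 2 in both groups, as did Arc and Npas4. Of 5 markers of dividing and progenitor cells 2 were higher and 0 lower, with sums of 10.98 to 14.1 on irradiated arrays and 11.3 to 16.0 on control arrays. Fibroblast markers (5 kept of 5, 1 higher and 2 lower) summed to 3.52 to 5.00 on irradiated arrays and 3.53 to 8.65 on control arrays. Endothelial and pericyte markers (5 kept of 7, without Cldn5 and Cdh5) had 2 higher and summed to 0.31 to 0.85 on irradiated arrays and 0.34 to 0.82 on control arrays. The part of these cells in the difference between numbers 1 and 2 was not tested.

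Between numbers 3 and 2, where 5 members were higher, the marker lists divided. Over all genes 1.38% were higher and 1.93% lower at an unadjusted p under 0.05. By the unadjusted p, 0 of 11 microglial markers were higher and 4 were lower on the arrays numbered 3, 0 of 8 astrocyte markers were higher and 1 was lower, and 0 of 10 neuronal markers were higher or lower. Of the 10 oligodendrocyte lineage markers, 4 were higher and 0 lower, in the direction of the members, and their part in the result was not tested. The median of the microglial markers, relative to their own 6-array mean, was -1.17 and -0.52 on irradiated arrays 3 and 2, against -1.35 and -0.80 on control arrays 3 and 2. For the 9 immediate early genes the same measure was 0.13 and -0.85 on irradiated arrays 3 and 2, against -0.01 and -0.53 on control arrays 3 and 2.

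**Figure D5:**
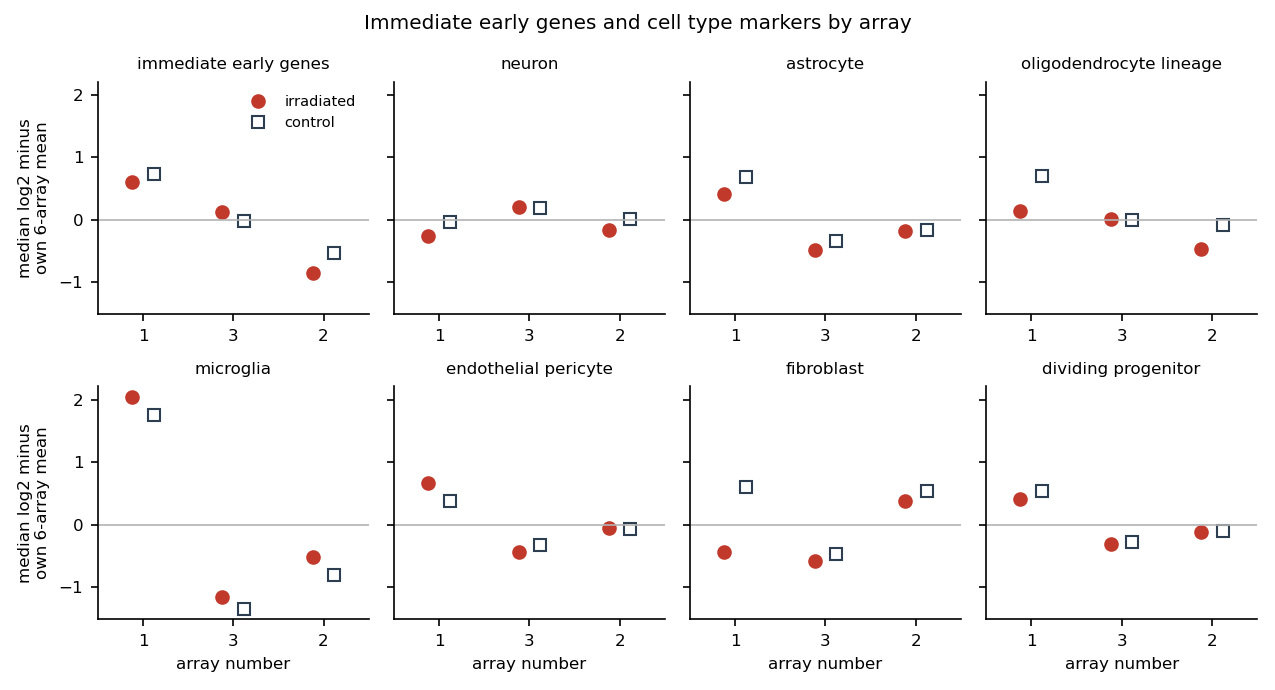
Median over the genes of each list of the log2 signal minus the gene's own 6-array mean (vertical axis), by array number (1, 3 and 2), for irradiated (filled circles) and control (open squares) arrays. Immediate early genes are high on number 1, intermediate on number 3 and low on number 2, microglial markers are high on number 1 and lower on number 3 than on number 2, and oligodendrocyte lineage markers run in the order 1, 3, 2 as the immediate early genes do.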

How the data were processed

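The authors deposited one scanner file per array, which holds spot intensity values; the submitters' processing notes name Agilent Feature Extraction 10.7.1.1. The processed signal intensity has background and spatial trend removed within an array, per the file headers. A second table deposited by the authors holds log2 values that are quantile normalised, as its columns show, by a tool not given in the sources used here. From these files, spots marked as outliers were dropped, spots of a probe were averaged as log2, and each array's 75th percentile over spots that are not controls was subtracted. Of 56605 probes, 10 had no usable spot on an array and 40552 passed the filter on dim probes. No spot was saturated. Every probe was a row of the fit, and a gene is given by its probe with the highest mean. Both comparisons used limma (version 3.58.1, under R 4.3.3): groups alone, and array numbers with the group as covariate, with Benjamini-Hochberg adjustment over all probes. The scripts were tested on simulated data. Probe positions are in build mm9, with no exon annotation. Per the file headers 1 slide and 1 scan hold all 6 arrays. Each array is one sample of unknown molecule count, so the number of arrays limits the precision. The members, the related lists (whose genes given by name are the 4 with the largest difference between numbers 1 and 2), and the rule for the 10 nearest genes were chosen with earlier results of these data known. Genes given beyond these rules were chosen after their values were seen.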

Additional observations from a re-analysis of the deposited data

How the results depend on the processing

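The counts at an unadjusted p, and the counts and medians of the gene lists without control 1, were added after the data were seen. No member probe passed between irradiated and control cultures under any alternative run, and over all probes the count was 0 except 4 with quantile normalization and 4 with the authors' deposited log2 table. All group differences of the members have intervals that include 0, and several turned: Egr1 to 0.015 with quantile normalization and 0.015 with the deposited table, and Egr3 to -0.10 without both arrays numbered 1. Leaving out each array in turn, group differences ranged from -0.69 to 0.35 for Fos, -1.32 to 0.30 for Fosb, -0.33 to 0.32 for Egr1, -0.36 to 0.50 for Egr3, -0.80 to 0.43 for Egr4, -0.90 to 0.24 for Arc and -0.35 to 0.79 for Npas4. The F test over numbers called 1 probe as reported, 0 with quantile normalization, 0 with the deposited table, 0 with no filter on dim probes, 161 with normexp, 206 with probes well above background on all 6 arrays, 209 with the mean of each gene's probes, 3 without both arrays numbered 1, and from 0 to 509 when each array in turn was left out; the cause was not tested. It called 1 member with normexp and from 0 to 1 with one array left out. Of the differences that passed the unadjusted threshold none turned. Member counts at that threshold moved in each comparison of numbers with one array left out, where 1 array stands alone for its number. Differences near 0 turned: Egr3, number 1 minus 3, to 0.00060 with quantile normalization and 0.00048 with the deposited table. With one array left out, number 1 minus 2 ranged from -0.71 to 0.40 for Egr2; number 1 minus 3 from -0.15 to 0.26 for Egr1, -0.49 to 0.33 for Egr2, -0.33 to 0.19 for Egr3 and -0.35 to 0.19 for Egr4; and number 3 minus 2 from -0.29 to 0.86 for Fosb, -0.26 to 0.57 for Junb and -0.63 to 0.48 for Egr2. Normexp moved the median of all probes to -0.19 between groups and to 0.13 for number 1 minus 3.

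With the replicate number as a block, 0 probes and 0 member probes passed between groups, so the block changed no call. Deviations of same-numbered arrays correlated at 0.46, 0.33 and 0.09 over kept probes for numbers 1, 2 and 3, and at 0.53, 0.42 and 0.22 over genes; irradiated 2 and irradiated 3 correlated more with another number's control (0.365 and 0.153) than with their own. The numbers thus reach a correlation of 0.1 in every pair over genes but not over probes, and the fit without the block was kept. By the first probe of each gene, the block narrowed the intervals of all members but Egr2, whose interval widened (-0.46 to 1.07). Among those narrowed were Arc (-0.86 to 0.17), Egr4 (-0.82 to 0.29) and Fos (-0.62 to 0.46).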
